A study of Mus musculus with 57 samples.

Results

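A set of 9 genes for secreted adipose proteins other than leptin and adiponectin was followed across the series: Retn, Rbp4, Cfd, Agt, Apln, Nampt, Rarres2, Nrg4 and Lcn2. They were chosen by name, with earlier results of these data known, as 9 of the 52853 genes with a count and a length in the deposited tables. Adipocytes act as endocrine cells that release proteins, the adipokines, into blood and the surrounding tissue. Resistin (Retn) and the retinol carrier RBP4 (Rbp4) have been linked to insulin resistance in mice, adipsin (Cfd) is the protease that starts the amplifying loop of the alternative complement pathway, and angiotensinogen (Agt) is the precursor of the angiotensin peptides. Apelin (Apln) and neuregulin 4 (Nrg4) are peptide ligands, chemerin (Rarres2) attracts immune cells, Nampt makes a precursor of NAD, and lipocalin 2 (Lcn2) binds bacterial iron carriers.

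The samples came from 41 male mice, either homozygous for the R707W change in the mitochondrial fusion gene Mfn2 (KI) or wild type (WT), from a line that goes back to 1 CRISPR founder and was kept on C57BL/6J. From an age of 5 weeks the mice ate either chow or a high-fat diet (HFD, 45% of kcal from fat) for 6 months. Inguinal white adipose tissue (IngWAT) was sequenced from 8 KI and 8 WT mice on HFD, with 2 libraries per mouse joined in 1 column, and from 6 KI and 7 WT mice on chow. Brown adipose tissue (BAT) was sequenced from 6 KI and 6 WT mice on HFD. The labels do not tie a BAT mouse to an IngWAT mouse, so all were counted and treated as separate animals. If some gave both tissues, there were fewer animals, and the tissue comparisons did not use that pairing. The 3 sets were deposited as 3 tables, and the difference between tables cannot be told apart from that between diets or between tissues.

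The counts of a mouse summed to between 17572752 and 25680411 in the HFD IngWAT set and to between 8042591 and 11720458 in the other sets. Ucp1, the uncoupling protein that defines brown adipocytes, lay at 4158 to 8504 CPM (counts scaled to a common library size by edgeR's cpm) in BAT and at no more than 1.77 CPM in IngWAT. Plin1, the coat protein of lipid droplets, lay between 719 and 2179 CPM in every mouse. The edit changes an amino acid and does not delete Mfn2, whose log2 fold change was 0.34 ± 0.09 (SE) in HFD IngWAT, 0.37 ± 0.12 in chow IngWAT and 0.29 ± 0.11 in BAT, none of them called.

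Some libraries stood apart. The chow WT mouse 4 had a mesothelial marker sum of 94.3 CPM against at most 1.78 in the other chow WT mice, an epithelial sum of 127 CPM and a macrophage sum of 2735 CPM. Skeletal muscle markers summed to more than 1000 CPM of the total counts in 7 mice and reached 60937 CPM of the total counts in chow KI mouse 4. Lymphocyte markers exceeded 300 CPM of the total counts in 4 mice.

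The promoter windows of the genes with the widest genotype differences are shown with the motifs that were searched for. RefSeq (build GRCm38.p6) gave a window of 300 bases, 250 before and 50 after a transcription start, for 8 of the 9 genes. Rarres2 was not matched. The letters searched on both strands were TGATGNAA (ATF4 and CHOP type), TTNNGNAA (C/EBP type), GGG and CC separated by 5 bases of any kind (kappaB type), CANNTG (E-box) and AGGTCA repeated after 1 base (DR1 type). Capitals mark the first 3 of these, the windows read 5′ to 3′ on the gene's strand, and each of these starts is the gene start of the deposited tables except that of Nrg4, which lies inside the annotated gene. Retn at chr8:3655520-3655819 (plus strand) and Rbp4 at chr19:38125272-38125571 (minus strand) are shown because both genes were lower in KI in all 3 sets. Agt at chr8:124569657-124569956 (minus strand) is shown because its genotype difference was not the same in the chow and HFD IngWAT sets. Nrg4 at chr9:55283576-55283875 (minus strand) is shown because it was higher in KI in both.
Retn: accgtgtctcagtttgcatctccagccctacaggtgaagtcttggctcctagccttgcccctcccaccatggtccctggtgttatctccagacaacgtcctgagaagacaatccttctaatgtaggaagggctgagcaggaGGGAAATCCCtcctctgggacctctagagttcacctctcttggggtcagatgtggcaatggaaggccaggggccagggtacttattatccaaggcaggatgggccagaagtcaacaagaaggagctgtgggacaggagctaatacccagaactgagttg
Rbp4: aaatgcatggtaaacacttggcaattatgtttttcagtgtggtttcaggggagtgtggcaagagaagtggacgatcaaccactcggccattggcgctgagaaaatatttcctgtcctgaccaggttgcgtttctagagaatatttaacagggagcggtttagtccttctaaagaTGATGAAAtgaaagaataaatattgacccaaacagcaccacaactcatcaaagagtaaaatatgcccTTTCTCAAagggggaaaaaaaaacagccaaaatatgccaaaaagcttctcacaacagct
Agt: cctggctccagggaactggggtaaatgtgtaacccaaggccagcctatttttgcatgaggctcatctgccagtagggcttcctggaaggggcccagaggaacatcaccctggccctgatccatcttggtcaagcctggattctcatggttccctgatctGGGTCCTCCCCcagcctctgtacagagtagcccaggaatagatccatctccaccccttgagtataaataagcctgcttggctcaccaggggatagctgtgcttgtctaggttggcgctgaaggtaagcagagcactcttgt
Nrg4: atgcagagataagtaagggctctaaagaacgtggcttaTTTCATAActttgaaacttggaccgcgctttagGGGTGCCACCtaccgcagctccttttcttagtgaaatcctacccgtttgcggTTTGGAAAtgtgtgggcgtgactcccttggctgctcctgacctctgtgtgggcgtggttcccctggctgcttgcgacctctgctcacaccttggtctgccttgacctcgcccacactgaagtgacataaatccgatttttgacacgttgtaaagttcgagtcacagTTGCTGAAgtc

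The Rbp4 window held the only ATF4 and CHOP type match among the 8 genes, starting 76 bases before the start, against 3.97% of all 32851 promoter windows with a match. A C/EBP type match stood 9 bases before the same start, and Nrg4 and Lcn2 also held this motif, which 40.7% of all windows have. The kappaB type letters occurred in 6 of the 8 genes and in 50.8% of all windows. The match in Retn, 109 bases before the start, reads as the motif on both strands. In Agt there were 2 overlapping kappaB type matches, at 91 and 90 bases, that appear as 1 run of capitals. E-boxes were present in all 8 genes and in 72.3% of windows, and the DR1 type repeat in none of the 8 and in 0.0396% of windows. No ATF4, C/EBP or kappaB type match overlapped one of another type in the printed windows, and the C/EBP type match of Nrg4 that lies past the start overlapped an E-box. RefSeq gave Rbp4 a further start, not printed, whose window held 2 C/EBP type and 3 kappaB type matches and no E-box. The counts of genes take a match in either window of Rbp4, while the shares are per window, so the 2 differ in unit. These matches describe letters and are not evidence of binding.

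The 9 genes covered a wide range of abundance. In chow IngWAT of WT mice they took a median of 0.980% of all counts, of which Cfd alone took 0.714% of all counts. On the scale of mean CPM per kb of transcript, Cfd stood at 7575 ± 4086 (SD, n = 7) in that group, rank 2 of 32388 genes with a count. Retn at 583 ± 154, Rbp4 at 383 ± 37.6 and Rarres2 at 208 ± 22.9 CPM per kb followed. The others were far less abundant there, with group means from 21.2 CPM per kb for Nampt down to 4.38 CPM per kb for Lcn2, and that value of Lcn2 rests on 1 mouse. In BAT of WT mice the order changed: Cfd at 914 ± 348 (n = 6) still led, but Rbp4 at 100.1 ± 50.6, Nampt at 61.9 ± 5.31 and Rarres2 at 60.2 ± 22.4 CPM per kb came before Retn at 22.5 ± 8.18 CPM per kb. The lowest was Agt at 0.431 ± 0.224 CPM per kb.

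**Figure D1:**
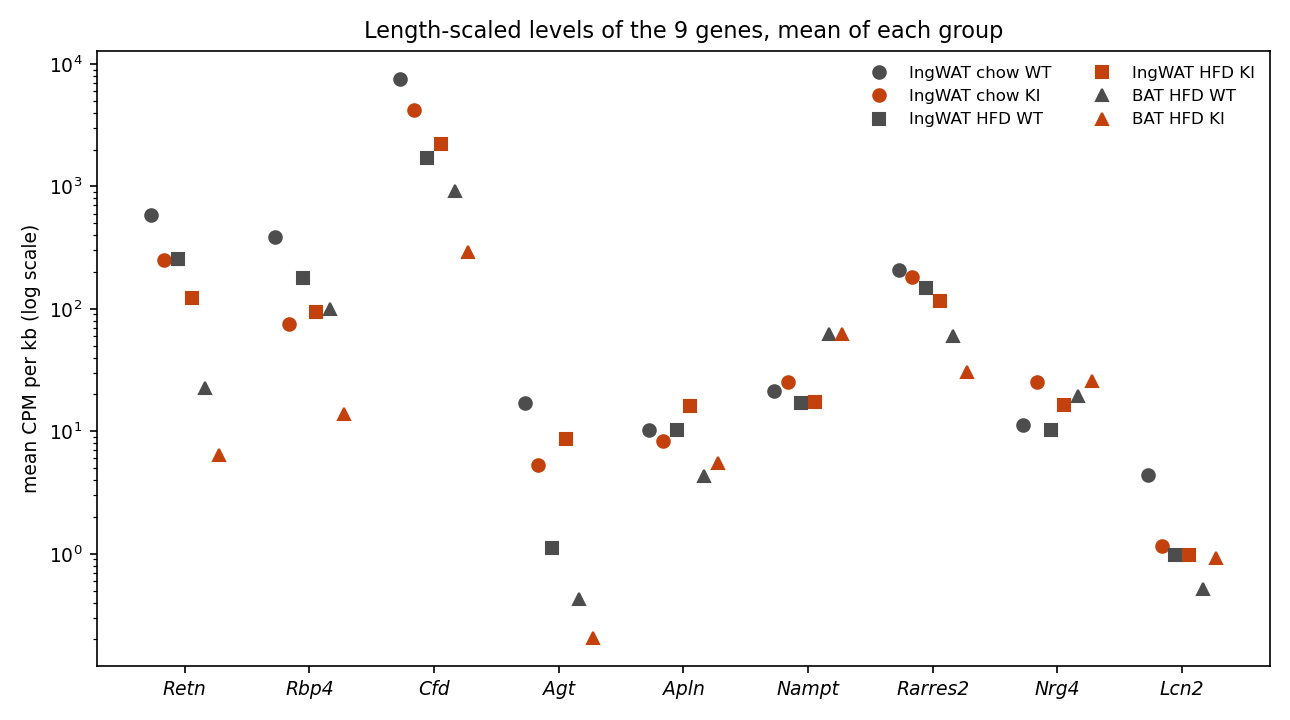
Mean CPM per kb of the 9 genes (log axis) in the 6 groups, with circles for chow IngWAT, squares for HFD IngWAT and triangles for BAT, grey for WT and orange for KI. Cfd leads in every group, and the lowest point is Agt in BAT KI, at 0.206 CPM per kb.

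The first question was how the mutation changed these genes in each tissue and diet. A gene was called at a Benjamini-Hochberg adjusted p below 0.01 in edgeR's quasi-likelihood test over all tested genes. On HFD, 3 of the 9 genes were called higher in KI IngWAT (Agt, Apln and Nrg4) where 6.21% of 16471 genes were, and 3 were called lower (Retn, Rbp4 and Rarres2) where 5.24% were. On chow, Nrg4 was called higher in KI where 2.06% of 14629 genes were, and Retn and Rbp4 were called lower where 1.22% were. In BAT, none of the 8 genes that passed the count filter was called higher where 1.36% of 13267 genes were, and Retn and Rbp4 were called lower where 0.475% were. Agt was filtered out of the BAT fit. The counts of called genes in the other lists are to be read against the same shares. The 9 genes and the lists were chosen with earlier results of these data known, so these shares do not test them as sets. Taken over the 9 genes, the log2 fold changes had a median of 0.03 in HFD IngWAT and of -0.86 in chow IngWAT, and over the 8 in BAT of -0.52, beside 0.01, 0.00 and -0.01 over all tested genes.

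The genotypes did not overlap for Retn, Agt and Nrg4 on HFD (4.53% of all tested genes did not), for Rbp4 and Nrg4 on chow (4.22%) and for Retn and Rbp4 in BAT (3.69%). Without the 4 HFD mice high in muscle markers, 2 of the 9 genes were still called in HFD IngWAT, Retn at a log2 fold change of -1.06 (adjusted p = 0.000974) and Agt at 2.78 (adjusted p = 2.26e-06), and 1004 genes in place of 1886 were called in all. Without the 3 HFD mice high in lymphocyte markers the same 2 were called, Retn at -0.98 and Agt at 3.05. Without the chow KI mouse 4, Rbp4 and Nrg4 remained called on chow. In BAT, leaving out the WT mice 1 and 2 added Rarres2 to Retn and Rbp4.

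**Figure D2:**
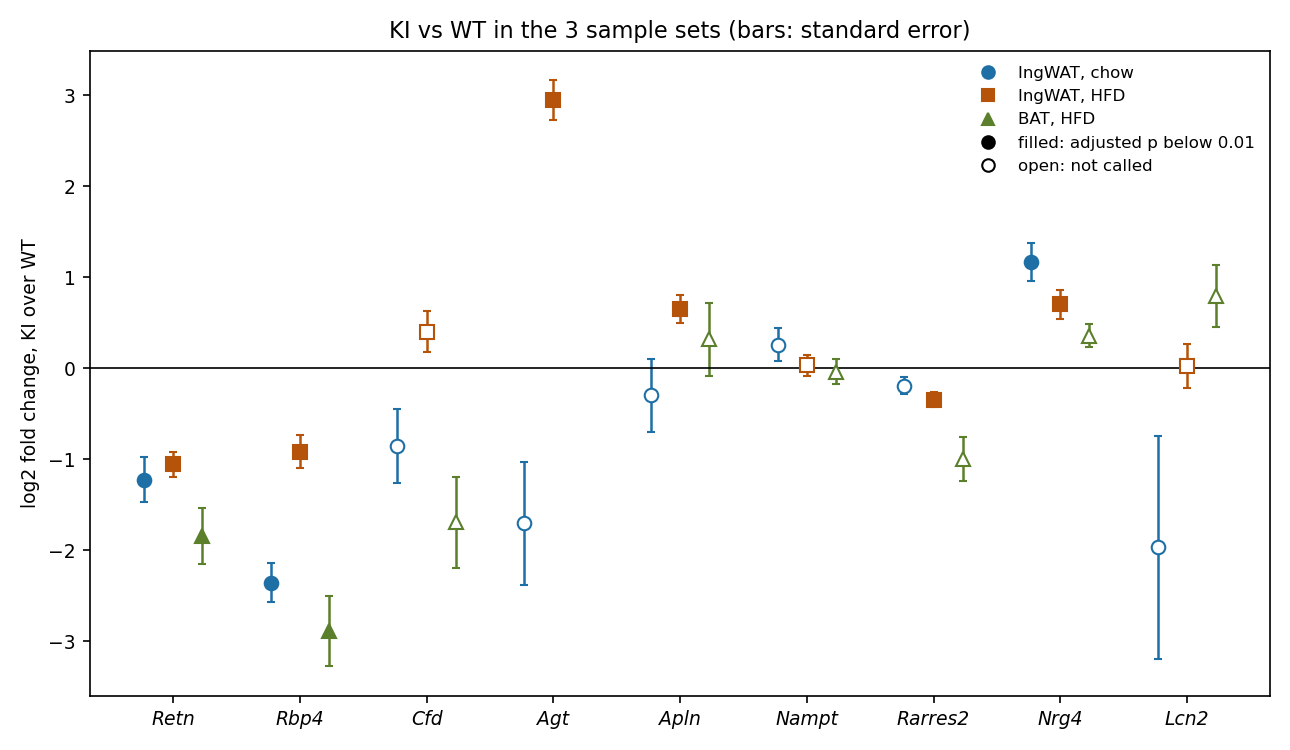
Log2 fold change of KI over WT with its standard error for each gene in chow IngWAT (circles), HFD IngWAT (squares) and BAT (triangles), filled where the adjusted p is below 0.01. Retn and Rbp4 are filled and below 0 in all 3 sets, Nrg4 is filled and above 0 in both IngWAT sets, and Agt lies at 2.95 on HFD and at -1.70, open, on chow.

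Resistin was lower in KI fat in all 3 sets. In chow IngWAT, the WT mice ranged from 466 to 1272 CPM (median 941) and the KI mice from 237 to 582 (median 354). The groups met only at WT mouse 4, the mouse with mesothelial markers, which had the lowest Retn of its group. On HFD the WT mice lay between 309 and 497 CPM (median 398) and the KI mice between 119 and 239 (median 203). In BAT the range was 17.1 to 52.6 CPM (median 35.9) in WT and 3.63 to 13.9 (median 11.4) in KI. On HFD, in both tissues, every KI mouse was below every WT mouse. The log2 fold change was -1.22 ± 0.24 (SE) on chow (adjusted p = 0.00698), -1.05 ± 0.14 on HFD (adjusted p = 1.84e-05) and -1.84 ± 0.31 in BAT (adjusted p = 0.0036). In bulk tissue, fewer cells that make a transcript and less of it per cell cannot be told apart.

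The chow call of Retn was close to the threshold. Of 13 refits, each lacking a single mouse, 3 kept it (those lacking WT mouse 4, KI mouse 1 or KI mouse 3), and in the other 10 the log2 fold change lay between -1.24 and -1.11 with adjusted p from 0.0133 to 0.0189. The BAT call was lost without KI mouse 5 (-1.84, adjusted p = 0.0103), and the HFD IngWAT call was kept in all 16 such fits. Of the 6 other genes of the resistin family and its receptors that were listed, 4 were tested in each IngWAT set and 3 in BAT. The 1 called was Retnla, a resistin-like molecule that alternatively activated macrophages secrete, at 331 ± 227 CPM (SD, n = 7) in chow WT and 57.8 ± 36.1 CPM (n = 6) in chow KI (log2 fold change -2.52 ± 0.49, adjusted p = 0.00738). This call was kept in 3 of 13 fits without 1 mouse (those without WT mouse 5 or KI mouse 1 or 5), with the value between -2.84 and -2.12 over all 13. The macrophage marker sums overlapped between these groups, with 781 to 2735 CPM in WT and 654 to 1409 CPM in KI, and their part in the result was not tested.

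Rbp4 was also lower in KI in all 3 sets. In chow IngWAT it lay between 426 and 573 CPM in WT (median 521) and between 73.1 and 162 CPM in KI (median 75.8). In BAT it lay between 36.6 and 208 CPM in WT (median 144) and between 10.02 and 25.9 CPM in KI (median 19.1). Neither pair of groups overlapped. In HFD IngWAT the groups did overlap, with 123 to 321 CPM in WT (median 238) and 86.4 to 162 CPM in KI (median 129). The KI level was 0.196 of the WT level on chow (log2 -2.35 ± 0.21, adjusted p = 1.57e-05), 0.531 of it on HFD (-0.91 ± 0.18, adjusted p = 0.00165) and 0.135 of it in BAT (-2.89 ± 0.38, adjusted p = 0.00114). All 3 calls were kept when any 1 mouse was left out. The HFD IngWAT call was lost without the 4 mice high in muscle markers (log2 -0.76, adjusted p = 0.0265) and without the 3 high in lymphocyte markers (-0.84, adjusted p = 0.0112).

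A list of 21 genes of retinol carriage and handling was read beside Rbp4. On HFD, 2 of the 14 tested in IngWAT were called higher, where 6.21% of all genes were, and 1 lower, where 5.24% were. On chow 1 of 12 was called higher (2.06% of all genes), and in BAT none of 10 was called. Aldh1a1, which makes retinoic acid from retinal, averaged 159 ± 45.2 CPM in the WT and 323 ± 57.7 CPM in the KI mice on HFD (n = 8 each, log2 1.03 ± 0.16, adjusted p = 0.000203). Rbp7, a cellular retinol-binding protein, averaged 87.0 ± 19.1 CPM in the WT and 175 ± 35.9 CPM in the KI mice on chow (log2 1.01 ± 0.16, adjusted p = 0.00125). The called fall was that of Rdh11, a retinal reductase, at -0.30 ± 0.08 (adjusted p = 0.00965) on HFD, a call kept in 2 of 16 fits without 1 mouse (KI mouse 1 or WT mouse 1). It was also lost without the mice high in muscle markers (-0.37, adjusted p = 0.0167) or in lymphocyte markers (-0.30, adjusted p = 0.0246).

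Adipsin was the most abundant of the 9 genes, and no genotype difference was called. Cfd lay between 2609.6 and 13294 CPM in chow WT (median 6422) and between 1824 and 8569 CPM in chow KI (median 3193). On HFD the medians were 1483 CPM in WT (915 to 2755) and 2247 CPM in KI (1250.4 to 2592). The log2 fold change was -0.86 ± 0.41 on chow (adjusted p = 0.212) and 0.40 ± 0.23 on HFD (adjusted p = 0.233). In BAT, 5 of the 6 KI mice lay between 53.9 and 234 CPM, below the lowest WT mouse at 537 CPM (median 732, highest 1369), and KI mouse 6 stood at 710.5 CPM. There the log2 fold change was -1.69 ± 0.50 (adjusted p = 0.0629), and without KI mouse 6 it was -2.25 (adjusted p = 0.00453). In the fit of all 6 groups it was called at -1.64 (adjusted p = 0.00785). KI mouse 6 also had the highest skeletal muscle marker sum of its group, 848 CPM against at most 174 CPM in the other 5, and the part of this in its Cfd level was not tested.

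Of the 14 other listed genes of the alternative complement pathway, 3 of the 12 tested in HFD IngWAT were called lower, where 5.24% of all genes were, and none higher. None was called in chow IngWAT (10 tested) or BAT (9 tested), and the list medians were -0.37, -0.36 and -0.38 on the log2 scale, beside 0.01, 0.00 and -0.01 over all genes. The fall with the greatest log2 size was that of C3, the protein on which the pathway turns, from a mean of 308 ± 135 CPM in the WT to 96.7 ± 53.2 CPM in the KI mice on HFD (n = 8 each, log2 -1.66 ± 0.36, adjusted p = 0.004). The other 2 were Cd55 and Cd59a, which protect cells from complement.

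The genotype difference of angiotensinogen was not the same in the HFD and chow IngWAT sets, where diet and table cannot be told apart. In HFD IngWAT, Agt lay between 1.12 and 2.78 CPM in WT (median 2.10) and between 8.89 and 22.7 CPM in KI (median 16.1), with no overlap. On chow the WT mice ranged from 2.53 to 106 CPM (median 26.1) and the KI mice from 4.53 to 17.3 CPM (median 9.18), inside the WT range. KI over WT, this was 2.95 ± 0.22 on the log2 scale on HFD (adjusted p = 4.00e-08) and -1.70 ± 0.68 on chow (adjusted p = 0.139, and 0.00908 in the fit of all 6 groups, where the chow fall was called at -1.69). The difference between these effects, tested in a fit of all 6 groups, was 4.63 ± 0.62 (adjusted p = 1.81e-05). The highest chow value, 106 CPM, was that of WT mouse 4. Without that mouse the chow difference was -0.99, not called, and the interaction was 3.93, the lowest of all alternatives, and was still called. The HFD value held in all 16 fits without 1 mouse, at 2.85 to 3.04.

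In BAT, Agt was barely detected, with 2 to 9 counts per mouse in WT and 1 to 7 in KI, against a floor of 3 counts. No fold change is given there for the genotype. The fit of 6 groups returned a difference of -4.02 ± 0.95 (adjusted p = 0.00687) between the genotype effect in BAT and that in HFD IngWAT. It rests on these few counts and lost its call in 10 of 28 fits without 1 mouse (BAT WT mice 1, 2, 5 and 6, BAT KI mice 2 to 6 and HFD IngWAT WT mouse 1, -4.10 to -3.79), without the mice high in muscle markers (-3.59, adjusted p = 0.139) and without those high in lymphocyte markers (-4.13, adjusted p = 0.0177).

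None of the other listed genes of the renin-angiotensin system was called higher in KI. Of 17 listed, 10 were tested in each set, and 4 were called lower in HFD IngWAT, where 5.24% of all genes were called lower and 6.21% higher. None was called on chow or in BAT. The list's median log2 fold change was -0.31 on HFD, -0.02 on chow and -0.10 in BAT. Cma1, the mast cell chymase that can form angiotensin II, averaged 9.93 ± 3.30 CPM in the WT and 3.63 ± 2.08 CPM in the KI mice on HFD (log2 -1.44 ± 0.29, adjusted p = 0.00183), a call lost without the mice high in muscle markers (-1.45, adjusted p = 0.0122). Mme and Nln, peptidases that cut angiotensin peptides, and the lysosomal protease Ctsd were the others called lower, at -0.82, -0.44 and -0.65. The angiotensin II receptor gene Agtr1a had means of 28.2 CPM in the WT and 32.3 CPM in the KI mice on HFD (adjusted p = 0.197), and Ace, the converting enzyme, at 71.1 and 62.3 CPM (adjusted p = 0.193).

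Apelin was higher in KI only in the HFD IngWAT set by this threshold, and the difference between sets was not called. There Apln lay between 23.8 and 50.5 CPM in WT (median 30.9) and between 34.5 and 79.9 CPM in KI (median 49.4). KI exceeded WT by 0.65 ± 0.16 on the log2 scale (adjusted p = 0.00612). This call was lost in 11 of 16 fits without 1 mouse, with the fold change between 0.54 and 0.77 over all 16. It was kept only without KI mouse 1, 2, 7 or 8 or WT mouse 7. It was also lost without the mice high in muscle markers (0.60, adjusted p = 0.0562) or in lymphocyte markers (0.62, adjusted p = 0.021), and in the fit of all 6 groups (0.65, adjusted p = 0.156). On chow the ranges were 12.9 to 66.2 CPM in WT and 11.8 to 43.4 CPM in KI (log2 -0.30 ± 0.40, adjusted p = 0.699), and in BAT 3.19 to 31.6 CPM and 12.9 to 24.3 CPM (0.32 ± 0.40, adjusted p = 0.665). The interaction of genotype and diet was 0.94 ± 0.46 (adjusted p = 0.318). Its receptor gene, Aplnr, went the other way on HFD, from 99.2 ± 21.1 CPM in the WT to 53.2 ± 15.8 CPM in the KI mice (n = 8 each, log2 -0.89 ± 0.17, adjusted p = 0.00128), and stood at -0.81 ± 0.18 on chow (adjusted p = 0.0133).

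Neuregulin 4, a ligand of the ErbB4 receptor that brown fat releases, was higher in KI IngWAT on both diets. On chow Nrg4 lay between 37.1 and 92.3 CPM in WT (median 74.4) and between 113 and 207 CPM in KI (median 147). On HFD it lay between 34.5 and 84.9 CPM in WT (median 60.8) and between 84.9 and 136 CPM in KI (median 94.5), so that the lowest KI mouse was level with the highest WT mouse and above it by less than the rounding. In BAT the ranges overlapped, at 107 to 137 CPM in WT (median 116) and 117 to 198 CPM in KI (median 162). The log2 fold change was 1.17 ± 0.21 on chow (adjusted p = 0.00346), 0.70 ± 0.16 on HFD (adjusted p = 0.00348) and 0.36 ± 0.13 in BAT (adjusted p = 0.0947). The chow call was lost without KI mouse 2 (1.13, adjusted p = 0.0101). The HFD call was lost without the mice high in muscle markers (0.65, adjusted p = 0.0336) or in lymphocyte markers (0.66, adjusted p = 0.0169).

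The sum of the brown adipocyte markers was higher in KI on chow, as Nrg4 was. It was 54.6 to 152 CPM in chow WT and 169.6 to 898 CPM in chow KI. Of these markers, 2 of the 7 tested were called higher, where 2.06% of all genes were. Cidea, a lipid droplet protein abundant in brown fat, averaged 25.7 ± 16.0 CPM in the WT and 209 ± 149 CPM in the KI mice (log2 3.03 ± 0.56, adjusted p = 0.0056). The Cidea call was kept in 4 of 13 fits without 1 mouse (WT mouse 4 or 5, KI mouse 4 or 5), with the value between 2.63 and 3.23. Ucp1 stayed at or below 0.893 CPM in all these mice. On HFD the sums overlapped, at 40.4 to 74.4 CPM in WT and 43.4 to 85.0 CPM in KI. There 2 of the 7 tested markers were called higher, where 6.21% of all genes were, and 2 lower, where 5.24% were. The part of these markers in the Nrg4 difference was not tested. Of 10 other neuregulin and ErbB genes, 1 of the 8 tested on HFD was called higher, where 6.21% of all genes were. On HFD 2 were called lower, where 5.24% were, and none of 7 was called on chow or in BAT. The receptor gene Erbb4 averaged 0.450 ± 0.243 CPM in the WT and 1.63 ± 0.784 CPM in the KI mice on HFD (log2 1.86 ± 0.35, adjusted p = 0.000938), and Egfr fell from 51.2 ± 12.4 to 30.7 ± 6.15 CPM (-0.73 ± 0.15, adjusted p = 0.00164). The Egfr call was lost without the mice high in lymphocyte markers (-0.66, adjusted p = 0.0114).

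Chemerin had the smallest called genotype difference of the 9 genes. In HFD IngWAT, Rarres2 lay between 337 and 478 CPM in WT (median 383) and between 278 and 356 CPM in KI (median 313). On the log2 scale this was -0.34 ± 0.08 (adjusted p = 0.00594), so the KI level was 0.788 of the WT level. This call was lost in 9 of 16 fits without 1 mouse (KI mice 3, 4, 6, 7 and 8, WT mice 3, 4, 5 and 6), with the value between -0.37 and -0.31, and without the mice high in muscle markers (-0.38, adjusted p = 0.0211) or in lymphocyte markers (-0.35, adjusted p = 0.0135). It was also lost in the fit of all 6 groups (-0.35, adjusted p = 0.087). On chow the ranges were 493 to 664 CPM in WT and 441 to 520.4 CPM in KI (-0.19 ± 0.09, adjusted p = 0.225). In BAT they were 82.3 to 227 CPM in WT and 53.6 to 112 CPM in KI (-0.9998 ± 0.24, adjusted p = 0.0247). The BAT difference was called without WT mouse 2 (-1.13, adjusted p = 0.0075), without the mice high in muscle markers (-1.26, adjusted p = 0.00199), by DESeq2 (adjusted p = 0.000867) and in the fit of all 6 groups (-0.97, adjusted p = 7.58e-05). Of 9 other genes of chemerin receptors and proteases, 4 were tested in each set. The 1 called was lower in BAT, where 0.475% of all genes were. The called gene was Cmklr1, the main chemerin receptor, at 9.21 ± 2.12 CPM in WT and 3.42 ± 1.78 CPM in KI BAT (n = 6 each, log2 -1.45 ± 0.28, adjusted p = 0.00589). This call was kept in 5 of 12 fits without 1 mouse (WT mouse 1 or 2, KI mouse 2, 4 or 6). It was lost in the fit of all 6 groups (-1.42, adjusted p = 0.0352).

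Rarres2 shares its locus with another gene. Rarres2 (chr6:48569696-48572789, minus strand) overlaps Lrrc61 on the other strand, and the library kit and counting were not stated to keep strand. Across the 41 mice the ratio of Lrrc61 to Rarres2 in CPM stayed between 0.607 and 0.781, and Pearson's r of their log2 values was 0.997. Lrrc61 had almost the same genotype differences, at -0.37 ± 0.08 on HFD (adjusted p = 0.00182), -0.23 ± 0.10 on chow (adjusted p = 0.156) and -0.94 ± 0.23 in BAT (adjusted p = 0.0247). The reads of these genes cannot be told apart here. Nrg4 overlaps Fbxo22 in the same way, but the ratio of Fbxo22 to Nrg4 ran from 0.300 to 1.51 (r = 0.463 across mice), and the Fbxo22 difference was 0.26 ± 0.09 on HFD (adjusted p = 0.0545) and 0.23 ± 0.08 on chow (adjusted p = 0.112).

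**Figure D3:**
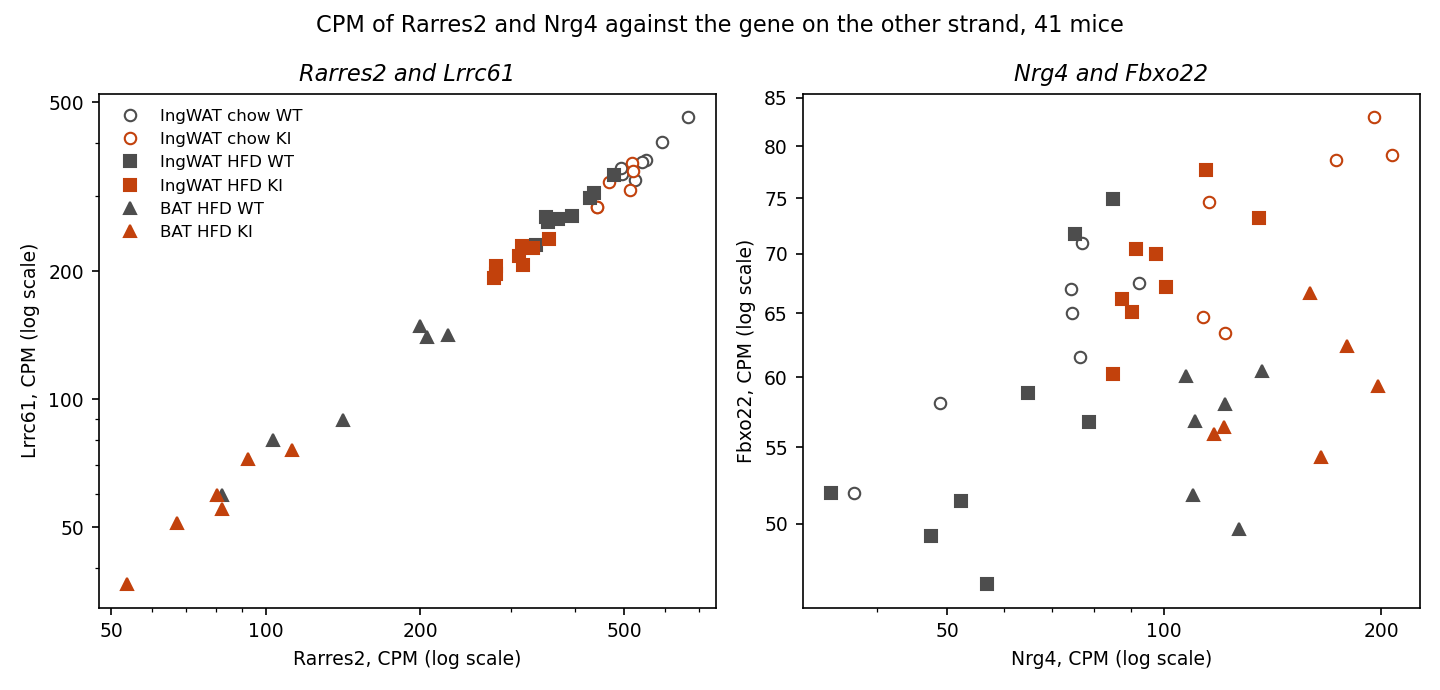
CPM (log axes) of Rarres2 against Lrrc61 and of Nrg4 against Fbxo22, 1 point per mouse, open circles for chow IngWAT, squares for HFD IngWAT and triangles for BAT, grey for WT and orange for KI. The 41 points of Rarres2 and Lrrc61 form a single line, and those of Nrg4 and Fbxo22 are scattered.

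Nampt, the rate-limiting enzyme of NAD salvage, had no called genotype difference. On chow it lay between 70.2 and 167 CPM in WT (median 96.3) and between 99.3 and 153 CPM in KI (median 129.6). On HFD it lay between 55.2 and 119 CPM in WT (median 87.8) and between 78.5 and 97.2 CPM in KI (median 85.4), and in BAT between 269 and 342 CPM in WT (median 321) and between 231 and 422 CPM in KI (median 297). The log2 fold changes were 0.26 ± 0.18 on chow (adjusted p = 0.414), 0.03 ± 0.12 on HFD (adjusted p = 0.884) and -0.04 ± 0.14 in BAT (adjusted p = 0.897). In IngWAT every KI mouse lay inside the WT range of its diet, and in BAT 2 KI mice lay below the WT range and 2 above it. Among 18 other genes of NAD synthesis and use, 1 of 17 tested was called higher on HFD, where 6.21% of all genes were. On chow 1 of 16 was called higher, where 2.06% of all genes were, and 1 lower, where 1.22% were. None of 13 was called in BAT. The called genes were the deacetylase Sirt2 on HFD (0.28 ± 0.06, adjusted p = 0.00233), and on chow the polymerase Parp1 (0.47 ± 0.08, adjusted p = 0.00221) and the methyltransferase Nnmt (-0.74 ± 0.15, adjusted p = 0.00784). The Nnmt call was kept in 4 of 13 fits without 1 mouse (WT mouse 4, KI mouse 1, 5 or 6), and that of Sirt2 was lost without WT mouse 1 (0.26, adjusted p = 0.0101) and without the mice high in muscle markers (0.23, adjusted p = 0.0314).

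Lipocalin 2 was low and its chow value was set by a single mouse. Lcn2 was 72.1 CPM in chow WT mouse 4 and 0.537 to 4.48 CPM in the other 6 WT mice, while the KI mice lay between 1.22 and 6.15 CPM (median 2.57). The log2 fold change on chow was -1.97 ± 1.22 (adjusted p = 0.35), and without that mouse it turned to 1.10 (adjusted p = 0.245). On HFD it lay between 0.884 and 3.74 CPM in WT and between 1.81 and 4.21 CPM in KI (0.02 ± 0.24, adjusted p = 0.963), and in BAT between 0.456 and 2.17 CPM in WT and between 1.596 and 3.59 CPM in KI (0.80 ± 0.34, adjusted p = 0.158). None of these differences was called. None of the 4 listed partners of Lcn2 was called in any set (2, 2 and 1 tested on HFD, on chow and in BAT).

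**Figure D4:**
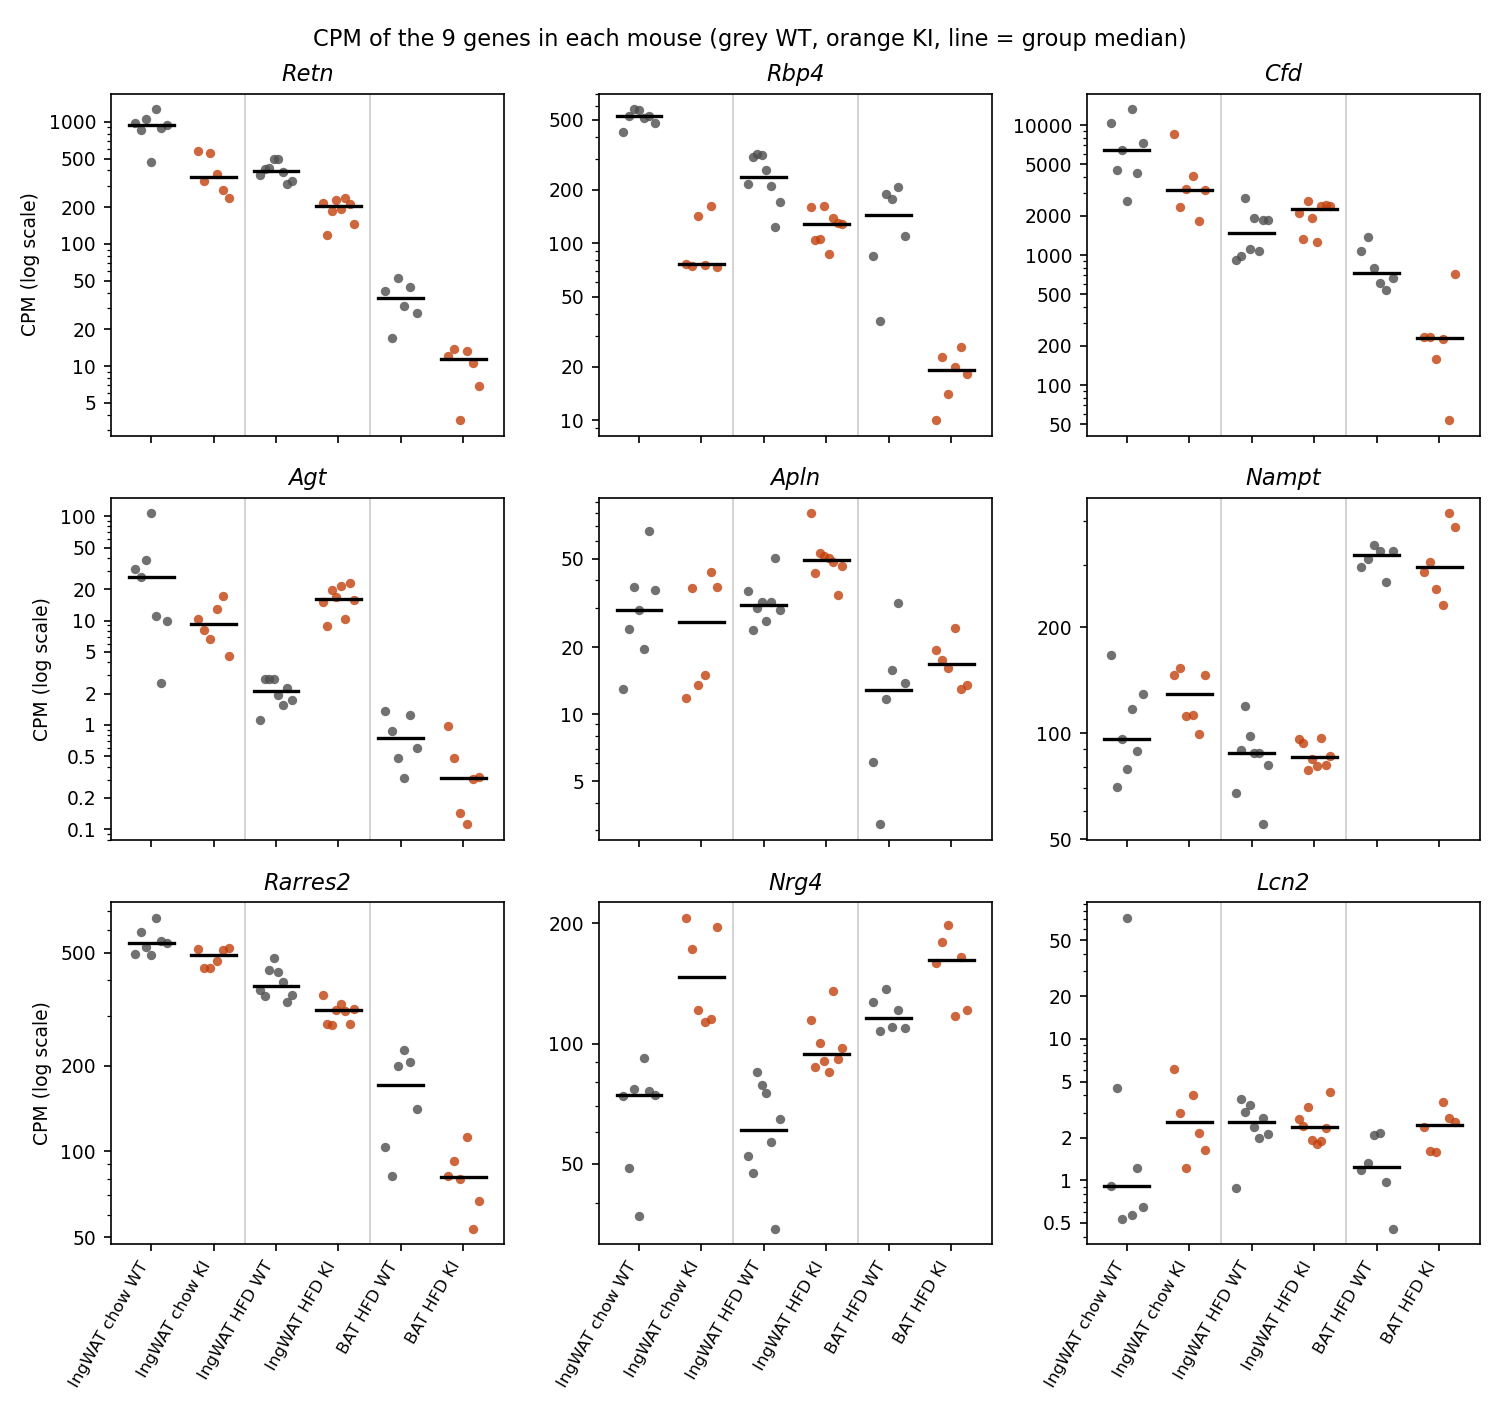
CPM of each of the 9 genes (log axes) in every mouse of the 6 groups, 1 point per mouse, grey for WT and orange for KI, with the group median as a line. The KI points lie below the WT points for Retn on HFD and for Rbp4 on chow and in BAT, the Agt points of KI on HFD (8.89 to 22.7 CPM) lie above those of WT (1.12 to 2.78 CPM), and 1 chow WT mouse stands alone for Lcn2 at 72.1 CPM.

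Leptin and adiponectin were read beside these genes. Adipoq was called lower in KI on HFD, from 2650.2 ± 335 CPM to 1469 ± 225 CPM (n = 8 each, log2 -0.85 ± 0.10, adjusted p = 1.05e-05), and stood at -0.63 ± 0.15 on chow (adjusted p = 0.0166) and -0.67 ± 0.15 in BAT (adjusted p = 0.0133). Lep was called lower on HFD (-0.62 ± 0.15, adjusted p = 0.00621) and stood at -1.50 ± 0.37 on chow (adjusted p = 0.0229) and -1.72 ± 0.58 in BAT (adjusted p = 0.101). With DESeq2, the paper reports both genes lower in KI on chow and in BAT. Its adjusted p was below the threshold used here except for Lep in BAT. In a list of 46 further adipokines and secreted adipose proteins that includes these, 2 of 41 tested were called higher and 7 lower on HFD. Over all genes these shares were 6.21% and 5.24%. On chow 2 of 41 were called higher (2.06% of all genes), and in BAT 3 of 38 were called lower (0.475% of all genes). The largest called fall on HFD was that of Saa3, an acute-phase protein, from a mean of 9.29 ± 6.16 to 0.444 ± 0.381 CPM (-4.34 ± 0.60, adjusted p = 8.84e-05). The largest called rise was that of the angiogenic factor Vegfa, from 203 ± 31.0 to 375 ± 74.1 CPM (0.89 ± 0.12, adjusted p = 3.45e-05). Epdr1, a secreted protein of brown fat, was called higher on chow (1.33 ± 0.21, adjusted p = 0.00132), and Sfrp5, a Wnt inhibitor, lower in BAT (-1.85 ± 0.36, adjusted p = 0.0081). The Sfrp5 call was kept in 2 of 12 fits without 1 mouse (WT mouse 2 or KI mouse 4). It was lost in the fit of all 6 groups (-1.83, adjusted p = 0.0188).

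Other marker lists were read for the mix of cells. Of 14 adipocyte markers, 3 were called higher and 2 lower in KI on HFD (6.21% and 5.24% of all genes), none on chow or in BAT. Their sums overlapped between genotypes in each set, from 32208 to 51881 CPM over all mice. Of the fibroblast and preadipocyte markers, 1 of 10 was called lower on HFD (Lum, -1.39 ± 0.20, adjusted p = 9.79e-05), where 5.24% of all genes were. In BAT 1 of 10 was called lower (Pi16, -1.62 ± 0.26, adjusted p = 0.00165), where 0.475% were. The Pi16 call was lost in the fit of all 6 groups (-1.59, adjusted p = 0.0632). The sums of this list overlapped between genotypes in all sets, at 867 to 1647 CPM in BAT WT and 709 to 989 CPM in BAT KI. On HFD, Lipe rose by 0.54 ± 0.11 (adjusted p = 0.00134) among the adipocyte markers, and among the brown adipocyte markers Cidea rose by 1.55 ± 0.27 (adjusted p = 0.000544) while Otop1 stood at -1.49 ± 0.17 (adjusted p = 5.82e-06). Of 4 neutrophil markers tested on HFD, 1 was called lower, S100a8 (-1.91 ± 0.30, adjusted p = 0.000145), where 5.24% of all genes were. The median of the 4 was -0.03 on the log2 scale. Their sums overlapped, at 9.26 to 27.1 CPM in WT and 5.81 to 12.7 CPM in KI. No macrophage, lymphocyte, endothelial, mesothelial, epithelial or muscle marker that passed the count filter was called in any set. The Lipe call was lost without the mice high in muscle markers (0.48, adjusted p = 0.0161). The part of these markers in the adipokine differences was not tested.

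The second question was how the level of each gene differed between diets and between tissues in either genotype, where each difference also lies between tables. These contrasts came from a fit of all 6 groups in which 16201 genes were tested. In WT IngWAT, 6 of the 9 genes were called between HFD and chow, all lower on HFD, where 28.2% of genes were called in either direction. These were Agt (log2 -3.93 ± 0.44), Lcn2 (-2.18 ± 0.68), Cfd (-2.16 ± 0.38), Retn (-1.20 ± 0.22), Rbp4 (-1.10 ± 0.25) and Rarres2 (-0.49 ± 0.14). In KI IngWAT, 4 were called, again lower on HFD, where 31% of genes were called. These were Retn (-1.03 ± 0.23), Rarres2 (-0.65 ± 0.15), Nrg4 (-0.62 ± 0.18) and Nampt (-0.55 ± 0.15).

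Several of these diet calls rest on few mice. The Lcn2 value turned to 0.86 without chow WT mouse 4 and lost its call without any 1 of the 8 HFD WT mice, and the Rarres2 call in WT was lost in 7 of 15 fits without 1 mouse (chow WT mice 2, 5, 6 and 7, HFD WT mice 2, 7 and 8). Without the mice high in lymphocyte markers Rarres2 stood at -0.47 (adjusted p = 0.0202) and Lcn2 at -2.25 (adjusted p = 0.0226) in WT, and without those high in muscle markers Lcn2 stood at -2.15 (adjusted p = 0.0363). The Nampt and Nrg4 calls in KI were lost without chow KI mouse 1, 2 or 6 (Nampt -0.52, -0.50 and -0.51, Nrg4 -0.52, -0.59 and -0.54), and without the mice high in muscle markers (Nampt -0.55, adjusted p = 0.0188, and Nrg4 -0.66, adjusted p = 0.0111). DESeq2 also called Apln in KI, higher on HFD by 0.95 (adjusted p = 0.009185). For Agt the diet difference was -3.93 ± 0.44 in WT (adjusted p = 7.53e-09) and 0.70 ± 0.43 in KI (adjusted p = 0.189), which is the interaction given above. Without chow WT mouse 4 the WT value of Agt was -3.23, still called. For Rbp4 it was -1.10 ± 0.25 in WT and 0.34 ± 0.26 in KI, and the interaction of 1.44 ± 0.36 was not called (adjusted p = 0.0204). The same interaction of Rbp4 was called without chow KI mouse 5 (1.63, adjusted p = 0.006), without the mice high in muscle markers (1.53, adjusted p = 0.00945), by DESeq2 (1.44, adjusted p = 0.00307) and in a fit of the 4 IngWAT groups alone (1.46, adjusted p = 0.00411). Agt was the 1 gene of the 9 with a called interaction of genotype and diet, where 0.889% of genes were called.

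Between tissues on HFD, 6 of the 9 genes were called in WT, where 57.8% of genes were, and 8 in KI, where 60.9% were. In both genotypes Nampt and Nrg4 were higher in BAT, by 1.87 ± 0.15 and 0.94 ± 0.18 (log2) in WT and by 1.85 ± 0.15 and 0.64 ± 0.18 in KI. Retn had the widest called gap between tissues in WT, at -3.50 ± 0.27, and stood at -4.25 ± 0.28 in KI. Apln (-1.25 ± 0.35 and -1.55 ± 0.35) and Rarres2 (-1.30 ± 0.16 and -1.92 ± 0.16) were also lower in BAT in WT and KI. Rbp4 was lower in BAT by 0.84 on the log2 scale in WT (-0.84 ± 0.26, adjusted p = 0.00536) and by 2.78 in KI (-2.78 ± 0.29, adjusted p = 8.81e-11). The WT call of Rbp4 was lost in 6 of 14 fits without 1 mouse (BAT WT mice 1, 2 and 6, HFD WT mice 2, 3 and 4, -0.80 to -0.65), and without the mice high in muscle markers Rbp4 stood at -0.46 (adjusted p = 0.112) and Apln at -0.88 (adjusted p = 0.0463) in WT. Without the mice high in lymphocyte markers Rbp4 stood at -0.81 (adjusted p = 0.0124) in WT, and in a fit of the contrast's groups alone at -0.84 (adjusted p = 0.0418). Cfd was called lower in BAT in KI (-2.93 ± 0.43) and stood at -0.89 ± 0.39 in WT (adjusted p = 0.0432). Agt was called lower in BAT in KI, with 0.112 to 0.974 CPM there against 8.89 to 22.7 CPM in HFD IngWAT, and no fold is given because 5 of the 6 BAT mice were at or under the floor of 3 counts.

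A difference of the genotype effect between tissues was called for 2 of the 9 genes, where 2.46% of genes were called. For Rbp4 the effect in BAT was lower than that in HFD IngWAT by -1.94 ± 0.38 on the log2 scale (adjusted p = 0.00106), and this held in all 28 fits without 1 mouse (-2.14 to -1.78). The other was Agt, with the limits given above. Agt was filtered out of the BAT fit and passed the filter of this fit through its IngWAT levels. Its call is therefore no result on the genotype in BAT. Cfd was not called at -2.04 ± 0.55 (adjusted p = 0.0172), and was without BAT KI mouse 6 (-2.62, adjusted p = 0.00117) and by DESeq2 (-2.05, adjusted p = 0.009086). Rarres2 was called without the mice high in muscle markers (-0.87, adjusted p = 0.00914). For Retn the difference between tissues was -0.76 ± 0.34 (adjusted p = 0.179).

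**Figure D5:**
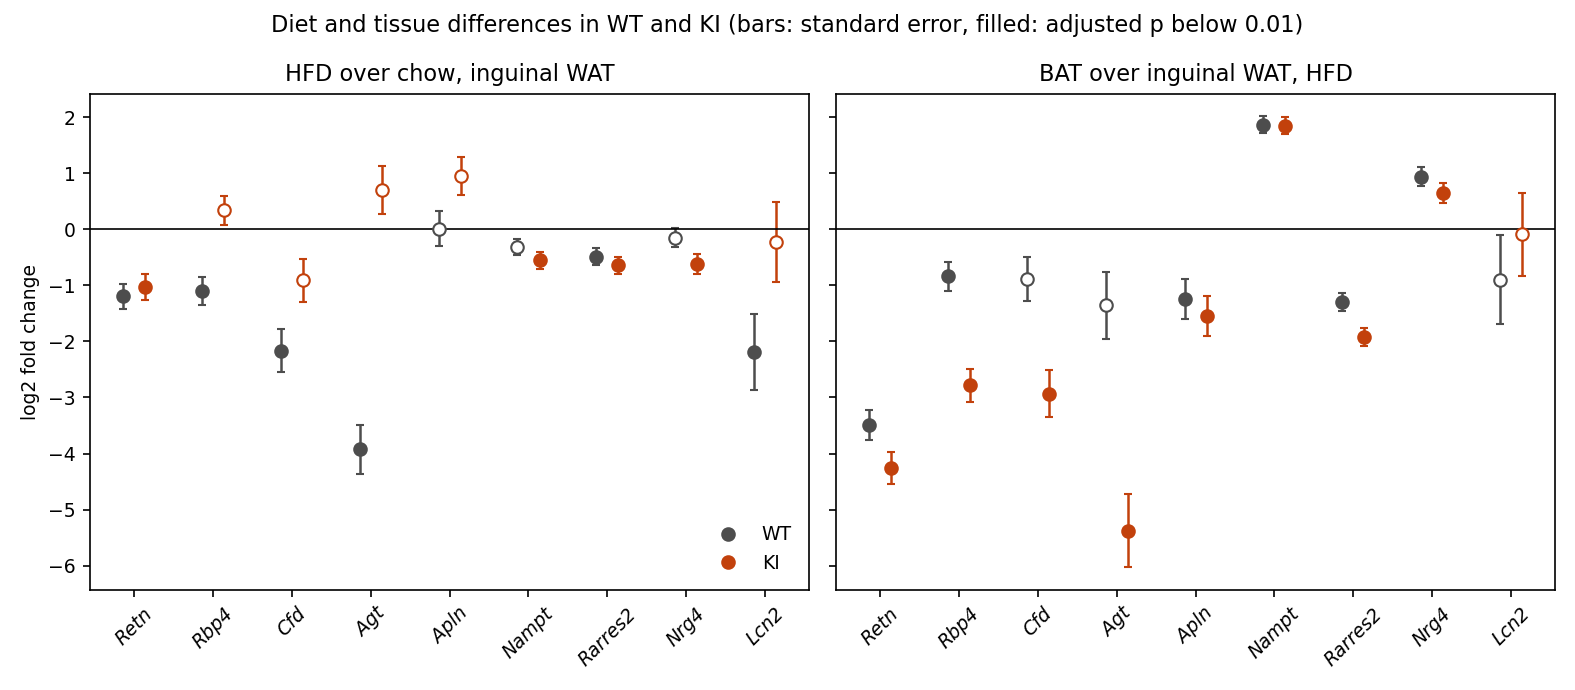
Log2 fold change with its standard error of HFD over chow in IngWAT and of BAT over IngWAT on HFD, in WT (grey) and KI (orange), filled where the adjusted p is below 0.01. Agt on HFD lies at -3.93 in WT and at 0.70 in KI, and Nampt and Nrg4 are the called genes above 0 in BAT. The Agt points for BAT rest on 1 to 9 counts per BAT mouse and depend on the fit.

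The order of the 6 groups differed from gene to gene. Retn ran from 920.1 ± 243 CPM in chow WT IngWAT through HFD WT (401 ± 68.8), chow KI (393 ± 144) and HFD KI (193 ± 41.4) to BAT WT (35.6 ± 12.9) and BAT KI (10.1 ± 4.02), and neighbours overlapped among the first 4 but not from HFD KI on. Rbp4 ran from 515 ± 50.4 CPM in chow WT to 18.5 ± 5.77 CPM in BAT KI, and these 2 groups at the ends overlapped with no neighbour. Agt ran from 32.2 ± 35.1 CPM in chow WT through HFD KI (16.3 ± 4.90) and chow KI (9.97 ± 4.64) to HFD WT (2.11 ± 0.630) and the BAT groups. The step from chow KI to HFD WT was the only one between neighbours without overlap, and chow WT mouse 6, at 2.53 CPM, lay inside the HFD WT range. For Cfd, Apln, Lcn2 and Nrg4 each group overlapped with its neighbours in the order. For Nampt the step from BAT WT (313 ± 26.8 CPM) to chow KI IngWAT (128 ± 22.8 CPM) had no overlap, and for Rarres2 the step from HFD KI IngWAT (309 ± 27.7 CPM) to BAT WT (160 ± 59.6 CPM).

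The genes whose log2 CPM followed each gene most closely over the 41 mice were listed as a description. Since the mice share tissue, diet and table, these values reflect those as well. For Retn they were Lrp3 (Pearson's r = 0.964), Ffar2 (0.963) and Lrrc61 (0.961). For Rarres2 they were Lrrc61 (0.997), Ffar2 (0.958) and Retn itself (0.957). Rbp4 was most like Wfdc21 (0.887), Hcar1 (0.873) and Ephb6 (0.867), and Cfd most like the transporter genes Slc43a1 (0.922), Slc1a5 (0.915) and Slc5a2 (0.899). Agt followed Pdia4 (0.853), Igfbp4 (0.851) and C2 (0.847), and Apln followed Zyx (0.875), Tpm4 (0.865) and Thbs1 (0.861). Nampt was most like Gpam (0.959), Cox6c (0.959) and Gm32817 (0.958), and Nrg4 most like A830018L16Rik (0.888), Txnl4b (0.885) and Pnpla2 (0.870). Lcn2 had the loosest partners, with the immunoglobulin genes Iglv2 (0.711) and Ighg3 (0.664) and Bex1 (0.695).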

How the data were processed

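RNA from inguinal white and brown adipose tissue of KI and WT mice was measured by polyA RNA-seq. The authors made cDNA with Illumina TruSeq RNA kits, used cutadapt for trimming, STAR for alignment (GRCm38) and featureCounts for counting, and deposited raw read counts per gene in 3 tables. Versions, annotation release and strand setting are not given in the sources used here. The tables also hold gene length. Of 54838 rows, 1884 without a length or count and 101 that shared a symbol were dropped.

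The 9 genes, the gene lists and the marker lists were chosen with earlier results of these data known. Replicates are separate mice. Genotype was tested within each table with edgeR 4.0.16 (R 4.3.3, TMM scaling, filterByExpr, robust quasi-likelihood test, Benjamini-Hochberg adjustment, threshold 0.01), and diet, tissue and interaction contrasts in 1 fit of 6 groups. CPM values use TMM scaling over all 41 mice, with CPM per kb for levels between genes. Of the lists, the genes named are the called member with the largest rise or fall in each genotype comparison, beside Lep, Adipoq, Mfn2, Plin1, Ucp1 and the 3 genes most like each adipokine (log2 CPM). Mme, Nln, Ctsd, Cd55, Cd59a, Agtr1a, Ace, Lrrc61 and Fbxo22 were named after their values were seen. The test was checked on simulated counts with 200 genes changed by 1.5 (log2): it recovered 91% in the HFD, 82.5% in the chow and 88% in the BAT design. For the diet and tissue interactions it recovered 74% and 75%. The share of false calls lay between 0.546% (HFD) and 1.96% (tissue interaction). Smaller changes were not simulated, so these shares do not cover them. DESeq2 1.42.0, other filters and scaling, a replicate block and refits without 1 mouse were alternatives.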

Additional observations from a re-analysis of the deposited data

Results flagged for a closer look

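Of 54 pairs of a gene and a group, 6 held 1 mouse far from the rest of its group by Dixon's criterion, which chance flags in about 1 of 20 groups. Lcn2 in chow WT mouse 4 was 72.1 CPM with the next mouse at 4.48 CPM, and Agt in the same mouse was 106 CPM with the next at 37.8 CPM. Cfd in BAT KI mouse 6 was 710.5 CPM with the next at 234 CPM, and in chow KI mouse 1 it was 8569 CPM with the next at 4038 CPM. Apln was 50.5 CPM in HFD WT mouse 7 (next 35.6 CPM) and 79.9 CPM in HFD KI mouse 1 (next 52.8 CPM).

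A difference of the genotype effect between conditions was called, by an interaction term, for 2 genes. For Agt the effect on HFD exceeded that on chow by 4.63 on the log2 scale, and the effect in BAT minus that in HFD IngWAT was -4.02. The second Agt value rests on 1 to 9 counts per BAT mouse, lost its call in 10 of 28 fits without 1 mouse and allows no statement on the genotype in BAT. For Rbp4 the effect in BAT minus that in HFD IngWAT was -1.94.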

How the results depend on the processing

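Over 80 values of the 9 genes, 649 of the results under alternatives (91.8%) and 1278 of 1383 refits without 1 mouse kept direction and call. RLE size factors and leaving out mitochondrially encoded genes changed no call of the 9 genes. The cause of a change was not tested, other than a lower threshold or fewer mice. At a threshold of 0.05, genes called were 3448 (HFD), 1263 (chow), 952 (BAT), 439 (diet interaction, with 2 of the 9 genes) and 1118 (tissue interaction). DESeq2 called 1121 (chow), 715 (BAT), 354 (diet interaction, 2 of the 9) and 723 (tissue interaction). One fit of all 6 groups called 1242 (HFD), 1088 (chow) and 835 (BAT, with 4 of the 9). Without a count filter 1 of the 9 was called in BAT and 1 for the tissue interaction, with 87 and 265 genes called for the diet and tissue interactions; with 10 counts in every mouse, 0 and 1 of the 9 for these, since Agt was then not tested. The diet interaction held 2 of the 9 with only its own groups. Chosen after seeing the data, leaving out mice with muscle markers gave 1004 genes and 2 of the 9 (HFD), 2 of the 9 (diet in KI), 53 genes and 2 of the 9 (diet interaction) and 125 genes (tissue interaction). Without the mice with lymphocyte markers, 2 of the 9 (HFD) and 1 of the 9 (tissue interaction) and 81 genes (diet interaction) were called.

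With the replicate number as a block, 1 of the 9 and 119 genes were called on chow, and Lcn2 on chow was 0.18. In BAT 0 of the 9 were called with it (Rbp4 adjusted p = 0.010004 and Retn 0.0293), while 363 genes in place of 243 were called in all. The same number did not mark the same animal. Of the pairs with the same number, 2 of 8, 2 of 6 and 3 of 6 correlated above 0.1 on HFD, on chow and in BAT. The highest of these correlations were 0.713, 0.185 and 0.441. Whether the numbers tie a WT mouse to a KI mouse is not given, and these few correlations cannot decide it.

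Leaving out 1 mouse gave 4 to 6 of the 9 and 1460 to 2338 genes (HFD), 1 to 3 and 285 to 509 (chow), 1 to 3 and 134 to 313 (BAT), 4 to 6 and 3991 to 4830 (diet, WT), 2 to 5 and 4144 to 5068 (diet, KI), 5 to 6 and 8826 to 9240 (tissue, WT), 8 and 9460 to 9722 (tissue, KI), 1 to 2 and 61 to 269 (diet interaction), and 1 to 2 and 295 to 479 (tissue interaction).

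Reversed signs were of uncalled values, apart from Lcn2 for diet in WT. Lcn2 was -0.014 (HFD, no muscle mice), 1.01 (chow, DESeq2), and without chow WT mouse 4 1.10 (chow), 0.86 (diet, WT) and -1.09 (diet interaction). Apln was -0.087 (BAT, no muscle mice), -0.0037 (diet in WT, own groups) and -0.011 (diet in WT, no mesothelial mouse), and Nampt 0.0078 (BAT, 6 groups). Over fits without 1 mouse, the reversed values ran within these ranges of all such fits: Nampt -0.12 to 0.056 (tissue interaction), -0.12 to 0.035 (BAT) and -0.039 to 0.11 (HFD), Apln -0.13 to 0.29 (diet, WT) and -0.53 to 0.14 (tissue interaction), Lcn2 -0.11 to 0.13 (HFD), -0.24 to 0.048 (tissue, KI), -0.39 to 0.098 (diet, KI), -2.39 to 0.86 (diet, WT), -2.30 to 1.10 (chow) and -1.09 to 2.28 (diet interaction). At 1 to 9 counts per mouse, depth allows no genotype comparison of Agt in BAT.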
